A study of Mus musculus with 24 samples.

Results

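The data described here are the differences, gene by gene, between the effect of Smad2 loss in paused and in control mouse embryonic stem cells. Members were all gene symbols with a value in both deposited results tables, 19134 of the 20625 symbols found in either. E14 cells, an embryonic stem cell line, were grown on gelatin in medium with serum and leukaemia inhibitory factor, and poly(A) RNA was sequenced. The groups were wild type (WT), a first knockout line (Smad2_KO1) and a second knockout line (Smad2_KO2), each without inhibitor (Ctrl) or after 12 hours with the mTOR inhibitor INK128 at 200 nM (Paused). Each of the 6 groups held 4 replicates, 24 libraries in all. The labels do not say whether replicates were separate cultures, so p-values measure the spread between these samples, which may be technical.

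Smad2 is a transcription factor that is phosphorylated by the receptors for Nodal, activin and TGF-beta, joins Smad4 and acts on target genes in the nucleus; the BMP receptors act through a separate set of Smads. mTOR is a kinase that promotes ribosome production, translation and lipid synthesis and restrains lysosome production and autophagy. Its inhibition slows embryonic stem cells into a reversible paused state that is used as a model of the diapaused blastocyst. The question asked by the comparison was which functions responded differently to Smad2 loss when mTOR was inhibited.

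Each table gave, per gene, a mean normalized count, a log2 change, its standard error (SE) and an adjusted p, with no value for a single library. Depth, the spread of libraries and each knockout line on its own were therefore not analysed here, and precision rests on the deposited standard errors, with a median of 0.11 in control and 0.10 under INK128 in the authors' deposited tables. The tables do not name the numerator, and changes are taken as knockout relative to wild type, since the targeted gene was lower in both. With the opposite reading every direction below would turn around. In the authors' deposited tables Smad2 mRNA fell to 78.6% of the wild-type level in control cells and to 64.6% in paused cells. The difference between these changes was -0.28 (95% confidence interval -0.46 to -0.10, adjusted p 0.0843), which did not pass the threshold although the interval lies below 0. Of the 9 embryonic stem cell markers examined, all were abundant, with means of 12895.5 to 51709.6 normalized counts in control and 11866.4 to 44099.9 under INK128 in the authors' deposited tables. Fibroblast markers, of which 7 of 8 were found, had means of 4.17 to 381 normalized counts in control and of 7.88 to 459 under INK128 in the authors' deposited tables. Primitive endoderm markers, 5 of 5 found, had means of 41.1 to 122 and of 41.9 to 169 in the same order in the authors' deposited tables. Neuroectoderm markers, 4 of 4 found, had means of 103 to 5795 and of 57.9 to 2142 in the authors' deposited tables. None of these markers passed the test of the difference.

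The effect of Smad2 loss differed between the conditions for 275 genes, 1.44% of those tested. The difference is the paused change minus the control change on the log2 scale, so that a positive value means a higher knockout-to-wild-type ratio in paused cells. Its SE combines the 2 deposited standard errors as the root of their summed squares, and adjusted p-values are Benjamini-Hochberg values over all 19134 genes, with a threshold of 0.05. A gene past that threshold is called here. Of the called genes, 137 were higher (0.716% of genes tested) and 138 lower (0.721%) in paused cells. The median size of a called difference was 0.37, or 1.29-fold, against 0.13, or 1.09-fold, over all genes, and 28 genes differed by at least 2-fold, 20 of them higher and 8 lower. By comparison, the authors' deposited tables called 8105 of these genes in control cells (42.4%) and 8393 in paused cells (43.9%). The balance of directions depended on scaling. When each table was shifted so that knockout and wild type had equal summed counts, 35.9% of 295 called genes were higher in paused cells, against 49.8% as deposited. Over all genes the middle of the statistic was spread 1.23 times as widely as a standard normal, the form it takes for unchanged genes with accurate standard errors. Scaled to that spread, 35 genes were called (0.183%).

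**Figure D1:**
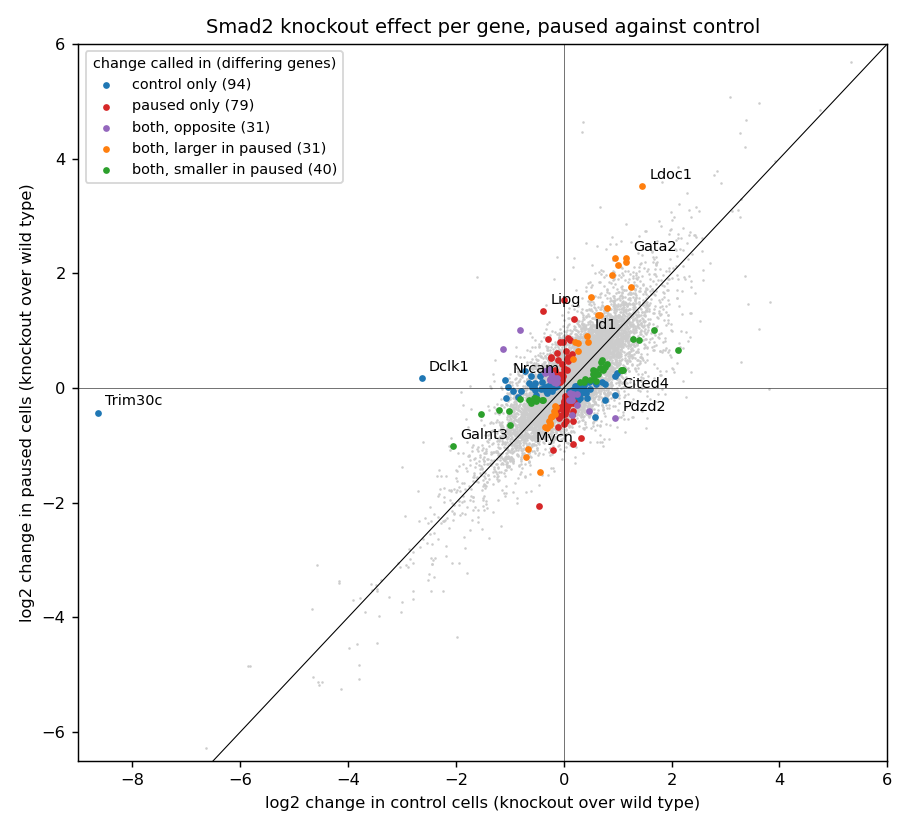
Log2 change of each gene on Smad2 loss in control cells (horizontal axis) and in paused cells (vertical axis), both from the authors' deposited tables, with the 19134 genes in grey and the 275 genes called for the difference coloured by where their change was called. Points on the diagonal have equal changes; Dclk1 and Ldoc1 lie far above it and Pdzd2 and Cited4 below.

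A called difference can arise in several ways, and these were counted from the calls in the authors' deposited tables. For 94 genes the effect of Smad2 loss was called in control cells only, 49 of them with the higher value in paused cells and 45 with the lower. For 79 genes it was called in paused cells only (38 higher, 41 lower). Another 31 genes were called in both conditions in opposite directions (19 higher, 12 lower). In 31 genes both calls had 1 direction and the paused change was the larger, and in 40 genes it was the smaller. A call in 1 table alone does not show a difference, so these classes describe genes that had already passed the test of the difference. After scaling to the middle spread, 13, 4, 6, 6 and 6 genes remained in these classes, in the order given.

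**Figure D2:**
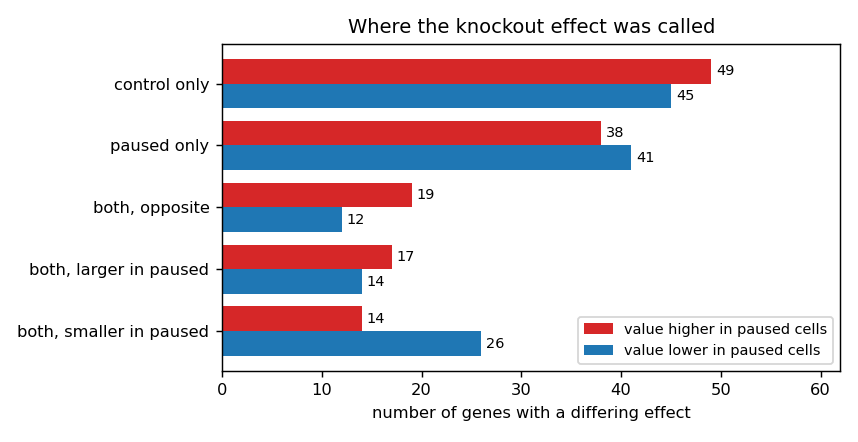
Number of genes (horizontal axis) among the 275 with a differing knockout effect, by where the authors' deposited tables called the change. Red bars count genes with the higher value in paused cells and blue bars those with the lower. The largest class, called in control cells only, holds 49 and 45 genes.

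Among the better expressed genes, averaging at least 200 normalized counts over the tables, several that fell on Smad2 loss in control cells had no called change in paused cells. Prickle1, a planar polarity component, fell by 1.08 in control cells and had a value of -0.17 under INK128 in the authors' deposited tables (difference 0.91, SE 0.22, adjusted p 0.00801). Gfra1, a GDNF receptor subunit, fell by 0.60 in control cells and stood at 0.22 under INK128 in the authors' deposited tables (difference 0.82, SE 0.23, adjusted p 0.0324). Arhgef28, a guanine nucleotide exchange factor, fell by 0.53 in control cells and stood at 0.08 under INK128 in the authors' deposited tables, and its difference of 0.61 (SE 0.10, adjusted p 0.0000153) had the smallest p of the higher genes at this level. Kif2a, a microtubule-depolymerizing kinesin, and Usp15, a deubiquitinase known to act on receptor-regulated Smads, followed the same course at smaller size. Kif2a fell by 0.21 in control cells and stood at 0.06 under INK128 in the authors' deposited tables. Usp15 fell by 0.26 and stood at 0.01 in the authors' deposited tables, with a difference of 0.27 (SE 0.05, adjusted p 0.000111). With the scaled statistic Arhgef28, Kif2a and Usp15 kept their calls, and Prickle1 and Gfra1 lost theirs.

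Other genes responded to Smad2 loss under INK128 and had no called change in control cells. Kitl, the ligand of the receptor Kit, stood at -0.02 in control cells and rose by 0.80 under INK128 in the authors' deposited tables (difference 0.82, SE 0.18, adjusted p 0.00177). Cdkn1c, an imprinted inhibitor of cyclin-dependent kinases, stood at 0.12 and rose by 0.84 in the authors' deposited tables (difference 0.72, SE 0.20, adjusted p 0.0282). Nmnat2, an enzyme of NAD synthesis, stood at 0.09 and rose by 0.47 in the authors' deposited tables (difference 0.38, SE 0.07, adjusted p 0.0000186). In the other direction, Nfkb1, a subunit of NF-kappa-B, stood at 0.07 in control cells and fell by 0.34 under INK128 in the authors' deposited tables (difference -0.41, SE 0.08, adjusted p 0.000357). Tmtc3, a transferase of the endoplasmic reticulum, stood at 0.08 and fell by 0.29 in the authors' deposited tables (difference -0.37, SE 0.08, adjusted p 0.00101). The calls of Nmnat2 and Nfkb1 were kept with the scaled statistic, and those of Kitl, Cdkn1c and Tmtc3 were lost.

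Genes called in opposite directions included Ivns1abp, Pdzd2, Antxr1 and Ltbp3. Ivns1abp, which encodes an actin-binding kelch protein, fell by 0.26 in control cells and rose by 0.16 under INK128 in the authors' deposited tables (difference 0.42, SE 0.08, adjusted p 0.0000690). Ltbp3, a latent TGF-beta binding protein, fell by 0.35 and rose by 0.29 in the authors' deposited tables (difference 0.64, SE 0.16, adjusted p 0.0102). Antxr1, a collagen-binding membrane protein, rose by 0.46 in control cells and fell by 0.39 under INK128 in the authors' deposited tables (difference -0.85, SE 0.23, adjusted p 0.0243). The control rise of Pdzd2 in the authors' deposited table, 0.96, carried an SE of 0.38, against an SE of 0.06 for its paused fall of 0.52. Ivns1abp kept its call with the scaled statistic, and Pdzd2, Antxr1 and Ltbp3 lost theirs. Trim30c had the largest difference of all, 8.21 (SE 2.25, adjusted p 0.0271), and is uncertain. Its call too was lost with the scaled statistic. It has near copies in the genome, its control change in the authors' deposited table was -8.64 with an SE of 2.02, and its mean was 1135 normalized counts in control but 3.19 in paused cells.

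The gene with the smallest p of all, Dclk1, stood below the level used for choosing named genes, as did Nrcam and Ldoc1, and these 3 were chosen after their values were seen. Dclk1, a microtubule-associated kinase, had means of 56.1 and 181 normalized counts in control and paused cells in the authors' deposited tables. It fell by 2.63 in control cells (SE 0.34) and stood at 0.17 (SE 0.12) under INK128 in the authors' deposited tables, a difference of 2.81 (SE 0.36, adjusted p 2.10e-10), or 7.01-fold. Nrcam, a neural cell adhesion molecule, fell by 1.09 in control cells and stood at 0.13 under INK128 in the authors' deposited tables (difference 1.22, SE 0.19, adjusted p 6.68e-07). Ldoc1, a nuclear protein of retrotransposon origin, rose by 1.46 in control cells and by 3.52 under INK128 in the authors' deposited tables (difference 2.06, SE 0.42). With Gata2, these made up the 4 genes that also passed when the null allowed differences of up to 1.2-fold.

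**Figure D3:**
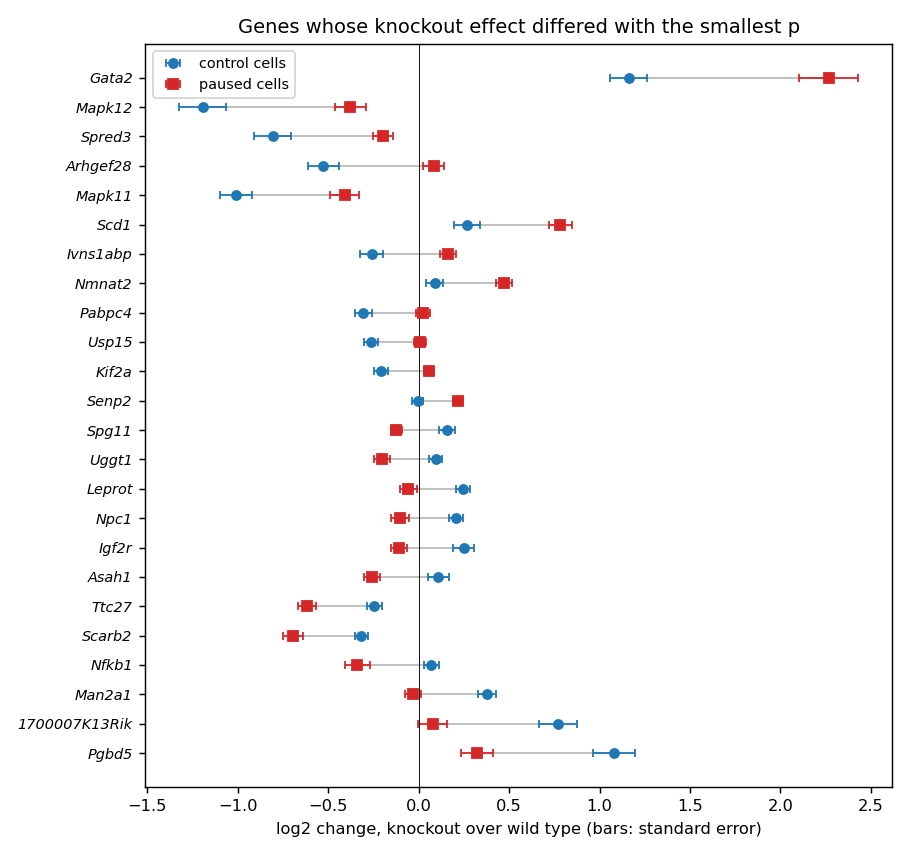
Log2 change, knockout over wild type, in control cells (blue circles) and paused cells (red squares) for the 12 genes in each direction with the smallest p that averaged at least 200 normalized counts, from the authors' deposited tables. Bars are the deposited standard errors. The bars of the conditions do not meet for any gene shown, and Gata2 is the one gene with a paused change above 2.

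Genes were then grouped by function in 35 lists of 1281 measured genes, of which 39 were called for the difference (3.04%, against 1.44% of all genes). With the scaled statistic 9 of the 39 kept their call: Id1, Gata2, Scd1, Scarb2, Asah1, Npc1, Igf2r, Pabpc4 and Eif4ebp2. The calls of every other gene in these lists were lost under that setting. The lists were chosen with earlier results of these data known, and a smaller SE makes a call easier. Median SE of the difference ranged over the lists from 0.06 (translation factors) to 0.43 (neuroectoderm), against 0.14 over all genes. The share of 3.04% is therefore no measure of enrichment. Members of a list were not tested as a set. Each list is described by its called members and its median, beside the median difference of 0.01 over all genes. Over all genes 51.3% lay above 0, and an unadjusted p under 0.05 was reached by 6.66% in the higher and 6.22% in the lower direction. Scaling each table differently moved the median of all genes by at most 0.02. Lists whose median turned sign, under a scaling or when genes averaging under 200 normalized counts were left out, are named where they occur.

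**Figure D4:**
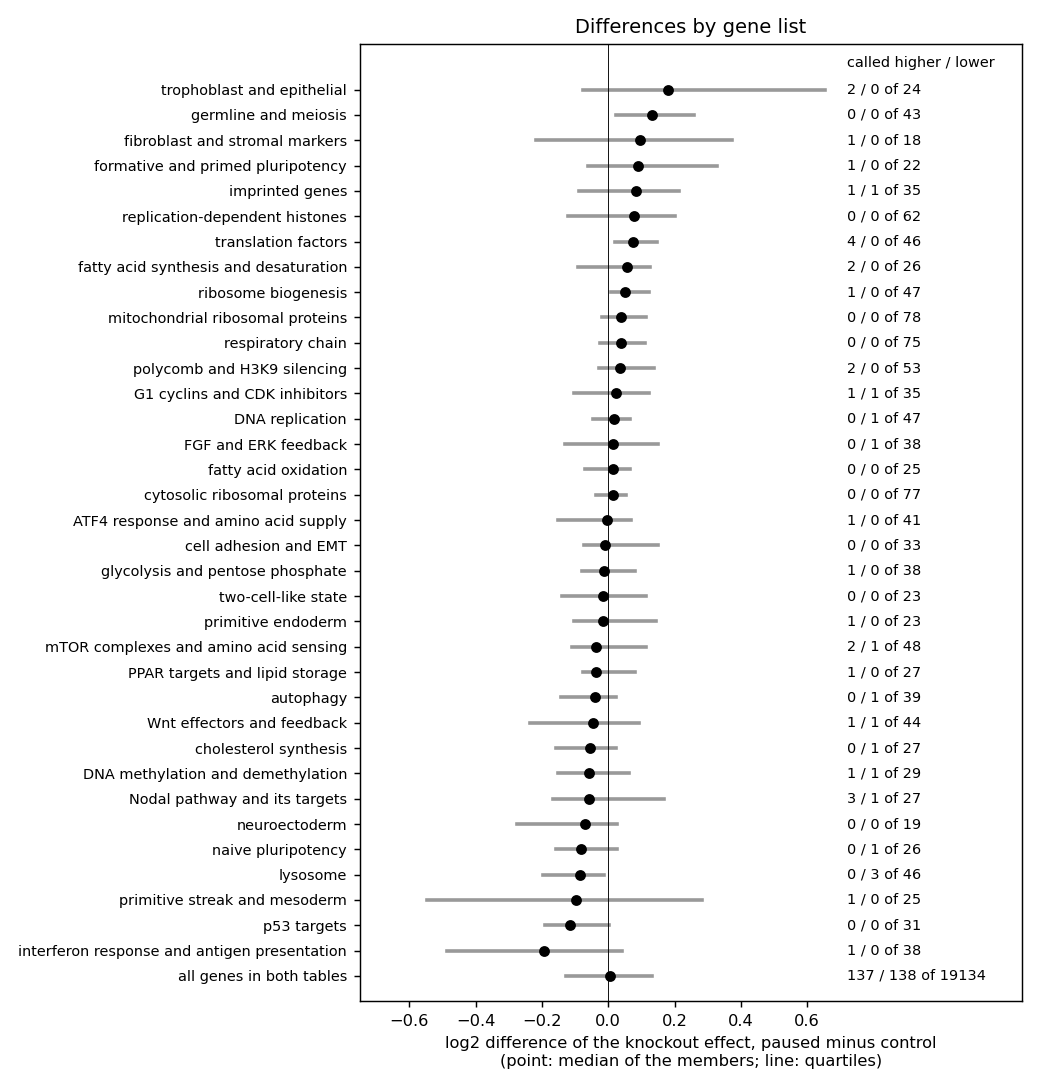
Median (points) and quartiles (lines) of the log2 difference of the knockout effect, paused minus control, over the measured members of each of 35 gene lists and over all 19134 genes. Numbers on the right count called members in each direction. The translation factor list has the most members called higher, 4 with 0 lower, and the lysosome list 0 higher and 3 lower.

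Genes of the Nodal pathway and its targets, where Smad2 is known to act, gave 4 calls with mixed directions. Of 27 measured, 3 were higher, 1 was lower and 23 were not called, with a median difference of -0.06. Smad3, the closest relative of Smad2 and a second carrier of the same signal, rose by 0.26 in control cells and stood at -0.21 under INK128 in the authors' deposited tables. Its difference was -0.48 (SE 0.11, adjusted p 0.00604). Eomes, a Nodal-responsive factor of mesendoderm and trophoblast, fell to 52.0% of the wild-type level in control cells and stood at 96.2% under INK128 in the authors' deposited tables (difference 0.89, SE 0.25, adjusted p 0.0326). The feedback inhibitor Lefty1 fell in both, with changes of -2.52 and -3.34 in the authors' deposited tables, and its difference of -0.82 was not called (95% confidence interval -1.32 to -0.33).

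The other called members of that list, Id1 and Id3, encode inhibitors of bHLH factors and are classic targets of BMP signalling. Id1 rose by 0.43 in control cells and by 0.91 under INK128 in the authors' deposited tables (difference 0.48, SE 0.10, adjusted p 0.000357). Id3 rose by 0.45 and by 0.80 in the authors' deposited tables (difference 0.35, SE 0.08, adjusted p 0.00177). A BMP list was added after these values had been seen. Of its 35 measured genes 4 were higher and 2 lower, 24 lay above 0, and the median was 0.07. Gata2, a haematopoietic and trophoblast factor, rose to 224% of the wild-type level in control and to 482% under INK128 in the authors' deposited tables, a difference of 1.11 (SE 0.19, adjusted p 0.0000294). Bmper, a secreted BMP modulator at low counts, rose by 0.95 and 2.27 in the authors' deposited tables (difference 1.32, SE 0.38). Ski, a co-repressor of Smad proteins, fell by 0.36 and 0.68 in the authors' deposited tables (difference -0.32, SE 0.07, adjusted p 0.00298), and Neo1, a receptor for netrins and repulsive guidance molecules, rose by 0.25 in control cells and stood at -0.08 under INK128 in the authors' deposited tables (difference -0.33, SE 0.09). Of the 6 calls in that list, those of Id1 and Gata2 were kept with the scaled statistic.

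Naive pluripotency genes had a median difference of -0.08, with 1 of 26 members called. Klf4, a naive-state factor, rose by 0.56 in control cells and by 0.26 under INK128 in the authors' deposited tables (difference -0.30, SE 0.08, adjusted p 0.0264). The 22 formative and primed genes had a median of 0.09, and 59.1% of them lay above 0, against 51.3% of all genes. The called member was Lin28b, an inhibitor of let-7 processing, which fell to 50.0% of wild type in control and to 63.6% under INK128 in the authors' deposited tables (difference 0.35, SE 0.09, adjusted p 0.0170). Dnmt3a, a de novo DNA methyltransferase, stood at -0.02 in control and rose by 0.34 under INK128 in the authors' deposited tables, and its difference of 0.36 was not called (adjusted p 0.0726).

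Lineage lists gave few calls. Of 24 trophoblast and epithelial genes 2, Gata2 and Eomes, were higher and none was lower, with a median of 0.18. In that list 7 genes had an unadjusted p under 0.05, all higher (29.2%, against 12.9% of all genes in either direction). Gata3, a trophoblast factor of the same family as Gata2, rose by 1.54 and 2.04 in the authors' deposited tables, and its difference of 0.50 was not called (95% confidence interval 0.11 to 0.88). In the primitive endoderm list 1 of 23 genes was called. That gene, Cubn, the endocytic receptor cubilin of the visceral endoderm, rose by 1.16 and 2.20 in the authors' deposited tables (difference 1.04, SE 0.27, adjusted p 0.0144). The primitive streak and mesoderm list had 1 call, Eomes, among 25 genes, and its median of -0.10 turned to 0.42 over the 6 members averaging at least 200 normalized counts. None of 19 neuroectoderm genes was called, and 3 had an unadjusted p under 0.05, all lower (15.8%, against 12.9% of all genes in either direction). Their smallest p-values were those of Pax6, Nes and Gbx2, with differences of -0.57, -0.74 and -0.54 (SE 0.24, 0.34 and 0.25). Gbx2 is also a member of the naive pluripotency list, where its difference was the lowest.

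Lipid genes showed calls in several branches. In fatty acid synthesis and desaturation, 2 of 26 genes were higher and none lower, with a median of 0.06. Both encode stearoyl-CoA desaturases, which introduce the first double bond into saturated fatty acids. Scd1 rose by 0.27 in control and by 0.78 under INK128 in the authors' deposited tables (difference 0.52, SE 0.10, adjusted p 0.000101). Scd2 fell by 0.64 in control cells and stood at 0.09 under INK128 in the authors' deposited tables (difference 0.73, SE 0.16, adjusted p 0.00313). These genes are similar in sequence, and how shared reads were counted is not stated. Pnpla2, the lipase that starts the breakdown of stored triglyceride, stood at 0.06 and rose by 0.32 in the authors' deposited tables (difference 0.26, SE 0.07, adjusted p 0.0335), the single call among 27 PPAR targets and lipid storage genes and one lost with equal summed counts. Pparg, the nuclear receptor of fat storage named in the series title, rose in both conditions, and its difference of 1.18 (SE 0.49, adjusted p 0.237) was not called. Its 95% confidence interval of 0.22 to 2.14 spans small and large differences. Fatty acid oxidation genes had 0 called of 25 and 3 with an unadjusted p under 0.05, all lower (12.0%, against 12.9% of all genes in either direction), and their median of 0.02 fell below 0 with equal summed counts.

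Of 27 cholesterol synthesis genes 19 had differences below 0, with a median of -0.06. A list of lipoprotein receptors and cholesterol uptake was added after values were seen, and 5 of its 29 genes were lower and 2 higher. Lrp1, a large endocytic receptor, rose by 0.56 in control cells and stood at 0.13 under INK128 in the authors' deposited tables (difference -0.44, SE 0.10, adjusted p 0.00358). Its chaperone Lrpap1 rose by 0.37 and 0.11 in the authors' deposited tables (difference -0.26, SE 0.07), and the sorting receptor Sorl1 rose by 0.27 in control cells and stood at -0.06 under INK128 in the authors' deposited tables (difference -0.33, SE 0.08). Lrp8, a receptor for reelin, had the opposite sign. It fell by 0.80 in control cells and stood at -0.06 under INK128 in the authors' deposited tables (difference 0.74, SE 0.21, adjusted p 0.0435), a call lost with equal summed counts. Lipg, a lipase that hydrolyses lipoprotein phospholipid, was also higher, with a value of -0.37 in control and a rise of 1.34 under INK128 in the authors' deposited tables (difference 1.71, SE 0.39). Mfsd2a, a transporter of lysophospholipids chosen after its values were seen, fell by 0.81 and rose by 1.01 in the authors' deposited tables at low counts (difference 1.82, SE 0.40). With the scaled statistic its call was lost, and of the calls in the list 1 was kept, that of Npc1, described with the lysosome.

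The effect of Smad2 loss on lysosome genes tended to be lower in paused cells. Of 46 measured, 36 lay below 0, 16 had an unadjusted p under 0.05 in that direction (6.22% of all genes did) and 1 in the other (6.66%), and 3 were called, all lower. Their median was -0.09, and the scalings tried, which moved all differences by at most 0.02, could not turn its sign. The median change went from 0.00 in control to -0.10 under INK128 in the authors' deposited tables. Scarb2, the membrane protein that carries glucocerebrosidase to the lysosome, fell by 0.32 in control and by 0.69 under INK128 in the authors' deposited tables (difference -0.38, SE 0.07, adjusted p 0.0000425). Asah1, acid ceramidase, stood at 0.11 and fell by 0.26 in the authors' deposited tables (difference -0.37, SE 0.07, adjusted p 0.000241). Npc1, which exports cholesterol from the lysosome, rose by 0.21 in control cells and stood at -0.10 under INK128 in the authors' deposited tables (difference -0.31, SE 0.06, adjusted p 0.000336). These 3 genes were also called with the scaled statistic. Other members had differences in the same direction that were not called, such as Neu1 (-0.29, SE 0.09), Psap (-0.24, SE 0.09) and Lamp1 (-0.20, SE 0.07).

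Igf2r, the mannose 6-phosphate receptor that delivers enzymes to lysosomes, is an imprinted gene outside that list; it and Cdkn1c were the calls among 35 imprinted genes, in opposite directions. It rose by 0.25 in control cells and fell by 0.11 under INK128 in the authors' deposited tables, a difference of -0.36 (SE 0.07, adjusted p 0.000463). Spg11, which takes part in lysosome reformation, rose by 0.16 and fell by 0.12 in the authors' deposited tables (difference -0.28, SE 0.05, adjusted p 0.000241). Among 39 autophagy genes 27 lay below 0, and 1 was called. Atg14, a subunit of the lipid kinase complex that starts autophagosomes, rose by 0.69 in control and by 0.46 under INK128 in the authors' deposited tables (difference -0.23, SE 0.07, adjusted p 0.0477), a call lost when the median change of each table was set to 0. Among p53 targets 0 of 31 were called. Their median was -0.12, 23 lay below 0, and 10 had an unadjusted p under 0.05 in the lower direction against 2 in the higher. The smallest p-values were those of Trp53inp1, Tigar and Polk, with differences of -0.36, -0.17 and -0.31 (SE 0.12, 0.06 and 0.11).

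**Figure D5:**
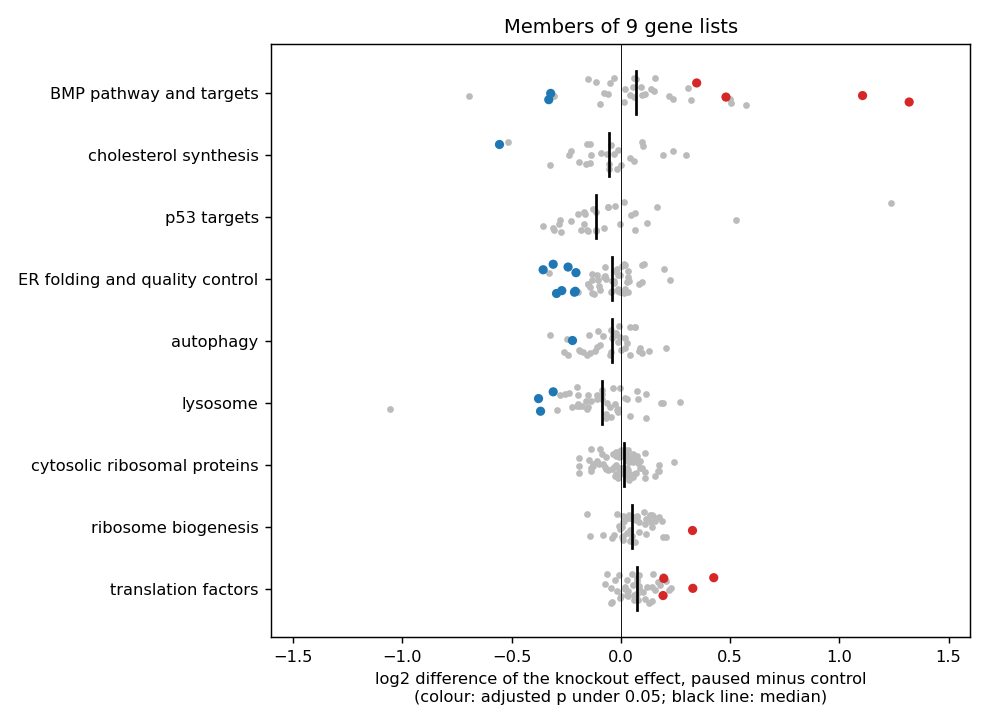
Log2 difference of the knockout effect, paused minus control, for each measured member of 9 gene lists. Grey points were not called, red points were called higher and blue points called lower in paused cells, and black bars are medians. Called translation factors all lie to the right of 0, and called lysosome genes all to the left, as do those of the endoplasmic reticulum list, which was gathered after several of them had been seen among the called genes.

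Of 46 translation factors, 36 lay above 0, 13 had an unadjusted p under 0.05 in the higher direction and 0 in the lower, and 4 were called, all higher. The median change was -0.13 in control and -0.06 under INK128 in the authors' deposited tables. The median difference was 0.07, a size at which scalings that moved all differences by at most 0.02 could not turn its sign. Pabpc4, a poly(A)-binding protein, fell by 0.31 in control cells and stood at 0.02 under INK128 in the authors' deposited tables (difference 0.33, SE 0.06, adjusted p 0.000101). Eif4e, the cap-binding factor that mTOR frees through its substrates, fell by 0.20 and stood at -0.01 in the authors' deposited tables (difference 0.19, SE 0.06, adjusted p 0.0371). Eif2b1, a subunit of the exchange factor that recharges the initiator complex, stood at -0.08 and rose by 0.12 in the authors' deposited tables (difference 0.20, SE 0.05, adjusted p 0.0106). The member Eef2k does not promote translation but is a kinase that inhibits elongation. It fell by 0.22 and rose by 0.20 in the authors' deposited tables (difference 0.43, SE 0.11, adjusted p 0.0142). Of these 4 calls, that of Pabpc4 alone was kept with the scaled statistic, and that of Eif4e was also lost with equal summed counts.

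Among ribosome biogenesis factors 39 of 47 lay above 0, with 11 at an unadjusted p under 0.05 in the higher direction and 1 in the lower. Their median change was -0.15 in control and -0.06 under INK128 in the authors' deposited tables, and the median difference was 0.05. The called member was Ltv1, a factor of small subunit assembly, which fell by 0.29 and stood at 0.03 in the authors' deposited tables (difference 0.32, SE 0.09, adjusted p 0.0389). This call was lost with equal summed counts. Outside the list, Nol9, a kinase of ribosomal RNA processing, fell by 0.15 in control and rose by 0.09 under INK128 in the authors' deposited tables (difference 0.24, SE 0.05, adjusted p 0.000357). Tbl3, a component of the processome of the small subunit, fell by 0.14 and rose by 0.14 in the authors' deposited tables (difference 0.28, SE 0.06, adjusted p 0.000515). Cd3eap, a subunit of RNA polymerase I, and Las1l, a partner of Nol9 in processing, were chosen after their values were seen. Their differences were 0.30 (SE 0.07) and 0.29 (SE 0.08), and both were called in opposite directions in the authors' deposited tables. With the scaled statistic the calls of Nol9 and Tbl3 were kept, and those of Cd3eap and Las1l were lost.

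For genes of the ribosome itself, no difference passed the threshold at this precision. Of all genes 1.44% passed it, so a count of 0 says little in lists of this size. None of 77 cytosolic ribosomal protein genes was called for the difference, although the authors' deposited tables called 36 of them lower in control (22.5% of all genes were) and 53 lower in paused cells (22.9%), with none higher in either. Their median difference of 0.01 fell below 0 with equal summed counts, and their differences ranged from -0.19 to 0.24, with an unadjusted p under 0.05 for 3, all lower. Among 78 mitochondrial ribosomal protein genes and 75 respiratory chain genes, 0 were called, and both medians were 0.04. By unadjusted p under 0.05, 8 genes of the former and 7 of the latter passed in either direction (12.9% of all genes did).

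Components of the mTOR pathway gave 3 calls among 48 genes, 2 higher and 1 lower, with a median of -0.04. Of these, Eif4ebp2, a repressor of Eif4e that mTOR phosphorylates, fell by 0.19 and stood at 0.03 in the authors' deposited tables (difference 0.22, SE 0.04, adjusted p 0.000463). Tsc2, which restrains mTOR complex 1, rose by 0.11 and stood at -0.06 in the authors' deposited tables (difference -0.18, SE 0.05, adjusted p 0.0298). Mios, a subunit of the GATOR2 complex of amino acid sensing, was chosen after its values were seen. It fell by 0.13 and rose by 0.18 in the authors' deposited tables (difference 0.31, SE 0.07, adjusted p 0.00416), and its call was lost with the scaled statistic.

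Genes of protein folding in the endoplasmic reticulum were gathered in a list after several had been seen among the called genes. Of 53 measured, 8 were lower and 0 higher, with a median of -0.04 and 37 below 0. Uggt1, the glucosyltransferase that checks the folding of glycoproteins, rose by 0.09 in control and fell by 0.20 under INK128 in the authors' deposited tables (difference -0.29, SE 0.06, adjusted p 0.000259). Wfs1, a membrane protein of the reticulum, rose by 0.49 and by 0.14 in the authors' deposited tables (difference -0.36, SE 0.07, adjusted p 0.000463). Manf, a secreted factor induced by folding stress, stood at 0.00 and fell by 0.24 in the authors' deposited tables (difference -0.24, SE 0.06). Sel1l, Ero1l, Eif2ak3, Calu and Crtap, which serve degradation, disulfide formation, stress sensing, calcium binding and collagen modification, had differences from -0.31 to -0.21. Of the 8 calls, those of Uggt1 and Wfs1 were kept with the scaled statistic. Man2a1, a mannosidase of the Golgi, is in none of the lists and had the smallest p of the lower genes. It rose by 0.38 in control cells and stood at -0.03 under INK128 in the authors' deposited tables (difference -0.41, SE 0.07, adjusted p 2.89e-06).

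Amino acid and one-carbon metabolism supplied isolated calls. Phgdh, the first enzyme of serine synthesis, fell to 69.5% of wild type in control cells and stood at 97.8% under INK128 in the authors' deposited tables (difference 0.49, SE 0.11, adjusted p 0.00171), the single call among 41 ATF4-response and amino acid supply genes. Enzymes of the methionine cycle went opposite ways, and were the 2 calls among 29 DNA methylation and demethylation genes. Mat2a, which makes the methyl donor S-adenosylmethionine, stood at -0.05 and fell by 0.33 in the authors' deposited tables (difference -0.28, SE 0.06, adjusted p 0.00342). Ahcy, which clears the by-product of methylation, fell by 0.40 and by 0.22 in the authors' deposited tables (difference 0.18, SE 0.05, adjusted p 0.0143). Slc16a1, a lactate transporter and the single call among 38 glycolysis and pentose phosphate genes, fell by 0.15 and stood at 0.16 in the authors' deposited tables (difference 0.31, SE 0.09, adjusted p 0.0319), a call lost with equal summed counts. The median of that list, -0.01, turned to 0.01 over the 36 members averaging at least 200.

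A pair of p38 kinases, Mapk11 and Mapk12, lie next to each other on chromosome 15 with 0 annotated genes between them in the RefSeq annotation of GRCm38.p6, and both fell less in paused cells. Mapk11, p38-beta, fell to 49.7% of wild type in control and to 75.3% under INK128 in the authors' deposited tables (difference 0.60, SE 0.12, adjusted p 0.000357). Mapk12, p38-gamma, fell by 1.19 and by 0.38 in the authors' deposited tables (difference 0.82, SE 0.16, adjusted p 0.000211). Mapkapk3, a kinase activated by p38, had the opposite sign. It fell by 0.28 and by 0.58 in the authors' deposited tables (difference -0.30, SE 0.07, adjusted p 0.00428). The scaled statistic kept the calls of Mapk11 and Mapk12 and not that of Mapkapk3. The p38 list, made after these values were seen, had these 3 calls among 22 genes, and its median of 0.01 fell below 0 with equal summed counts.

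Promoters were examined for sequence shared by the called genes, in the window from 250 bases before to 50 bases after the start given by RefSeq (GRCm38.p6), which was found for 13624 of the 19134 genes (71.2%). CACGTG, the palindromic E-box letters bound by Myc and by the lysosomal regulator Tfeb, stood in 9.58% of all these promoters, in 13.6% of 103 promoters of higher genes and in 10.9% of 110 promoters of lower genes. The promoters below, of a gene called higher and a gene called lower, are shown because the same 6 letters, in capitals, stand before the listed start of both. The start listed for Mapk12 lies 874 bases inside the gene's annotated extent, so it is not the outermost start, while that of Igf2r is at the outer end. Mapk12 has 1 match, which begins 31 bases before the listed start, and Igf2r has 2, which begin 48 and 7 bases before it. The windows are chr15:89140654-89140953 and chr17:12769657-12769956, both on the minus strand, printed 5′ to 3′.
Mapk12: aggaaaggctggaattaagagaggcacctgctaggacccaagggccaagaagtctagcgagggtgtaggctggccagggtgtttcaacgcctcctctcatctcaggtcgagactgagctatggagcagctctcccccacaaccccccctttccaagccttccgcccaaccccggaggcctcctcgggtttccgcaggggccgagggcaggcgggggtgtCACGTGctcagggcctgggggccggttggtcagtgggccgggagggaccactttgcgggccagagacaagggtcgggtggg
Igf2r: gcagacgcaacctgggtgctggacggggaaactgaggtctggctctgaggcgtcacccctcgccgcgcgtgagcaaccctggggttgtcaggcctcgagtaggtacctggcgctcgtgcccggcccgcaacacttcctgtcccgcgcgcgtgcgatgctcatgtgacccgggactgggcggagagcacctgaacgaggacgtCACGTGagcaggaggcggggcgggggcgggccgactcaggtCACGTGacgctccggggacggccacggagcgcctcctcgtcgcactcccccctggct
Other letters searched on both strands were CCAAT, GTCTAGAC (a palindromic Smad site), TGATGNAA (an ATF4 composite site) and AATNCACA, a Foxh1-type site. CCAAT stood in 38.4% of all promoters, 28.2% of those of higher genes and 40.0% of those of lower genes. GTCTAGAC stood in 0.228% (31 promoters), 0.971% (1 promoter) and 0 in the same order. TGATGNAA stood in 2.52% (344), 0 and 1.82% (2), and AATNCACA in 2.19% (298), 0.971% (1) and 0.909% (1). A match is a description of the letters and not a site.

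Growth control and chromatin lists held scattered calls. Mycn, a driver of growth in these cells, fell to 63.2% of wild type in control and to 47.9% under INK128 in the authors' deposited tables (difference -0.40, SE 0.08, adjusted p 0.000963). Of 35 genes of G1 cyclins and CDK inhibitors, Cdkn1c was higher and Mycn lower. Orc1, a subunit of the origin recognition complex, rose by 0.15 and stood at -0.04 in the authors' deposited tables (difference -0.19, SE 0.05, adjusted p 0.0191), the single call among 47 DNA replication genes, whose median of 0.02 fell below 0 with equal summed counts. Of 53 polycomb and H3K9 silencing genes 2 were higher. L3mbtl2, a subunit of a variant polycomb complex, stood at -0.04 and rose by 0.19 in the authors' deposited tables (difference 0.24, SE 0.05, adjusted p 0.00149). Daxx, a chaperone of histone H3.3, stood at -0.03 and rose by 0.17 in the authors' deposited tables (difference 0.20, SE 0.06, adjusted p 0.0240), a call lost with equal summed counts. Among 62 replication-dependent histone genes 0 were called, and 2 higher and 1 lower had an unadjusted p under 0.05. Their median of 0.08 turned to -0.14 over the 15 members averaging at least 200.

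Signalling and adhesion lists held few calls. Fgfr3, a receptor of fibroblast growth factors, rose to 199% of wild type in control cells and stood at 119% under INK128 in the authors' deposited tables (difference -0.74, SE 0.19, adjusted p 0.0118). It was the one call of 38 FGF and ERK feedback genes, whose median of 0.02 fell below 0 with equal summed counts. Spred3, of the Sprouty-related inhibitors of ERK signalling, fell by 0.81 and by 0.20 in the authors' deposited tables (difference 0.61, SE 0.12, adjusted p 0.000241). In the Wnt list of 44 genes Prickle1 was higher and Ctnnb1 lower. Ctnnb1, beta-catenin, rose by 0.10 and stood at -0.05 in the authors' deposited tables (difference -0.15, SE 0.04, adjusted p 0.0311). None of 33 cell adhesion and EMT genes was called, and 3 higher and 1 lower had an unadjusted p under 0.05. The smallest p-values there were those of the epithelial splicing factor Esrp1, of Grhl2 and of Zeb1, with differences of 0.26, 0.27 and -0.25 (SE 0.08, 0.10 and 0.12).

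Fbn1, the microfibril protein fibrillin, was the one call of 18 fibroblast and stromal genes. It fell by 0.27 in control and rose by 0.34 under INK128 in the authors' deposited tables (difference 0.61, SE 0.15, adjusted p 0.00953). The summed mean level of the 7 fibroblast markers was 1013.5 normalized counts in control and 1015 under INK128 in the authors' deposited tables, and their part in this result was not tested. Lists of the two-cell-like state and of germline and meiosis held many genes called in each condition and 0 called for the difference. Of 23 two-cell genes, 21 were called higher in control cells (19.9% of all genes were) and 19 under INK128 (20.9%) in the authors' deposited tables, and none had an unadjusted p under 0.05 for the difference. The median difference of the two-cell list, -0.02, turned to 0.07 over the 17 members averaging at least 200. Of 43 germline genes, 27 were called higher and 8 lower in control cells in the authors' deposited tables (19.9% and 22.5% of all genes were). Under INK128, 30 were called higher and 3 lower in the authors' deposited tables (20.9% and 22.9% of all genes were). For the difference, 33 germline genes lay above 0, with a median of 0.13. An unadjusted p under 0.05 was reached by 7 of them in the higher direction and 1 in the lower. Interferon and antigen presentation genes had a median of -0.19 and a single call, the uncertain Trim30c, among 38.

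Called genes were better expressed than genes at large and had smaller standard errors. The test divides each difference by its SE, so genes with a small SE pass more easily. How far the traits given here follow from this was not tested. An average of at least 200 normalized counts was found for 86.9% of the called genes and 58.6% of all genes in the authors' deposited tables, and the median SE of the difference was 0.09 and 0.14. Of the 265 called genes with a RefSeq biotype, 258 were protein coding (97.4%, against 85.9% of all) and 4 were long noncoding RNAs. The share of genes called ranged over the autosomes from 0.454% on chromosome 13 to 2.10% on chromosome 10. The median log2 ratio of the paused to the control mean in the authors' deposited tables, which were normalized separately, was 0.00 for the higher genes, 0.03 for the lower genes and 0.03 over all genes.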

How the data were processed

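Poly(A) RNA was sequenced in 24 libraries, and titles gave each sample's genotype and treatment. FastQC, Trim Galore, HISAT2, featureCounts and DESeq2 with the build mm10 are named per the submitters' processing notes, without versions; the annotation, use of strand and filters are not given in the sources used here. The authors deposited 2 DESeq2 results tables, 1 for each condition. Per the file headers they hold a mean of normalized counts (a signal that the authors averaged over libraries), a log2 change and its standard error on the log2 scale, a test statistic (a score deposited by the authors), and the authors' p-value with its adjusted value. The statistic was checked to be the change over its SE to within 0.157%. Whether both knockout lines entered each table is not stated. Depth per library is unknown, so the SE is the one measure of precision.

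The difference of the changes, its SE (root of summed squares), a two-sided normal p, a 95% interval and a Benjamini-Hochberg adjusted p were computed over 19134 genes with Python 3.11.15, numpy 2.4.6, scipy 1.17.1, pandas 2.3.3 and statsmodels 0.14.6, and tested on simulated data. Errors in the simulation were normal and had the deposited standard errors, so it could not test whether those are accurate. No library serves both conditions, per the labels, and each table was normalized on its own. No pseudocount or filter was applied. RefSeq (GRCm38.p6) gave promoters, biotypes and older symbols.

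Members and lists were chosen with earlier results of these data known, and 4 lists (endoplasmic reticulum, lipoprotein receptors, BMP, p38) after values were seen. Named genes were Smad2 and Pparg; of the called genes averaging at least 200, the 15 largest differences and 12 smallest p in each direction and the 6 smallest p in each class; in each list up to 8 called members or, with none, the 3 smallest p. Genes outside this rule are given with lists added later, as members not called, or as chosen after their values were seen. Some genes that the rule names are not reported here. Alternatives were a threshold of 0.01, a difference of at least 2-fold, a mean of at least 200, a median change of 0, equal summed counts, the scaled statistic, a test against at most 1.2-fold and Benjamini-Yekutieli adjustment, with equal weights for the summed counts added after seeing the data.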

Additional observations from a re-analysis of the deposited data

Results flagged for a closer look

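The effect of Smad2 loss differed between paused and control cells for 275 genes by the test of the difference itself. Among them, 31 were called in opposite directions in the authors' deposited tables. After the statistic was scaled to the spread of its middle, 35 genes passed.

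Genes listed in a single table could not enter the comparison and held further calls. Of the 845 genes in the paused table alone, 111 were called in the authors' deposited table (13.1%). Of the 646 genes in the control table alone, 84 were called in the authors' deposited table (13.0%). Over each whole table, 42.6% of genes in the authors' deposited paused table and 41.4% in the control table were called. Genes found in a single table were weakly expressed, and the shares are a description. Control samples do not give a background for these counts.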

How the results depend on the processing

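Counts are given as the total called, then higher, then lower, then genes called in control only, in paused only, in opposite directions, in both and larger in paused, and in both and smaller in paused. A threshold of 0.01 gave 102, 57, 45, 35, 24, 18, 13 and 12. A difference of at least 2-fold gave 28, 20, 8, 7, 7, 3, 8 and 3. The scaled statistic gave 35, 21, 14, 13, 4, 6, 6 and 6. The test against at most 1.2-fold gave 4, 4, 0, 2, 0, 0, 2 and 0. Benjamini-Yekutieli adjustment gave 72, 42, 30, 22, 15, 14, 11 and 10. Each of these is stricter by construction. The other settings kept the total within 1.5 times of 275. A mean of at least 200 gave 325, of which 239 were shared with the 275, a median change of 0 gave 273 (269 shared), and equal summed counts gave 295 (244 shared) or, with equal weights, 297 (246 shared). The share of higher genes was 35.9% and 36.4% under these last settings, against 49.8%. Without genes averaging under 200, the median turned sign for the primitive streak and mesoderm (0.42), two-cell-like (0.07), glycolysis (0.01) and replication-dependent histone (-0.14) lists.

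Of 81 named genes called, 75 kept their call with equal summed counts, 80 with a median change of 0, 46 at a threshold of 0.01, 41 with Benjamini-Yekutieli adjustment, 30 with the scaled statistic, 6 at 2-fold and 1 against at most 1.2-fold. The settings left each difference as it was or moved all differences by the same amount, at most 0.02. No setting could therefore turn the direction of a called gene. No paired analysis was possible because the deposited tables hold changes and not single libraries, and leaving out each replicate in turn was not run for the same reason. Whether the calls lost on scaling are small true differences or come from underestimated standard errors cannot be told apart here. Precision limits the rest, with a median SE of 0.14. Differences well above their SE could still go uncalled, such as that of Smad2 (-0.28, SE 0.09).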

Other observations

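Genes present in 1 table alone were weakly expressed, with a median mean of 5.86 normalized counts in the authors' deposited paused table and 5.57 in that for control cells. At such levels a gene can enter a table through the group where it is high, so no balance of directions is given for them. Hspb7, a small heat shock protein of muscle, rose by 1.32 in the authors' deposited paused table (SE 0.27, adjusted p 9.24e-06). Mef2c, a transcription factor of muscle and neurons, fell by 1.12 in the authors' deposited control table (SE 0.33, adjusted p 0.00295), and Scgn, a calcium-binding protein, fell by 1.32 in the same authors' deposited table (SE 0.37, adjusted p 0.00151). These genes are not shown to differ between the conditions, since no difference could be computed. They were chosen after their values were seen.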
